A study of Mus musculus with 4 samples.

Results

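Of the 29144 features in the gene table, 9 were followed here: the metabotropic glutamate receptor genes Grm2, Grm3, Grm4, Grm5, Grm7 and Grm8 and the scaffold genes Homer1, Homer2 and Homer3. They were chosen by gene symbol, each symbol was found in 1 row, and all 9 passed the filter of a mean of at least 1 FPKM (fragments per kilobase of transcript, scaled to library size) that left 12865 named genes. The striatum was dissected from C57BL/6J mice at 21 weeks after birth, and 1 poly A+ RNA library was sequenced for each of 4 genotypes of a Huntington's disease knock-in series. These were HDQ+/+, the wild type, HDQ150/150 and HDQ200/200, which carry a knock-in allele on both chromosomes, and HDQ315/+, which carries 1 knock-in and 1 wild-type allele. Allele number and zygosity therefore change together between HDQ315/+ and the other mutants, and the labels used here give neither the sex nor the number of animals behind each library. Depth ranged from 25058804 fragments in HDQ150/150 to 36877652 in HDQ+/+, and the 9 genes together held between 12548 and 29063 fragments per library. With 1 library per genotype there is no spread between animals and no test between genotypes, and every interval below covers counting error only.

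Metabotropic glutamate receptors are G protein-coupled receptors that tune glutamate transmission on a slower scale than the ionotropic receptors. Group I receptors, here Grm5, couple through Gq to phospholipase C and to calcium release by inositol trisphosphate receptors, whereas group II (Grm2, Grm3) and group III (Grm4, Grm7, Grm8) receptors couple through Gi/o, lower cyclic AMP and often act on nerve terminals. Homer proteins sit in the postsynaptic density, where they bind proline-rich stretches of group I receptors, inositol trisphosphate receptors and Shank proteins, and short, activity-induced Homer1 products lack the coiled coil that links the long forms. The receptor encoded by Grm5 is abundant in striatal projection neurons, and Grm3 is known from astrocytes as well as neurons.

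All 12 markers of striatal projection neurons were measured in all 4 libraries and none was listed at 0, but their summed FPKM went from 3502 in HDQ+/+ to 1531 in HDQ150/150, 1477 in HDQ200/200 and 2324 in HDQ315/+. In these bulk samples, fewer cells of a type and less RNA per cell cannot be told apart. The 8 choroid plexus markers summed to 1572 FPKM in HDQ+/+ and to between 55.4 and 317 FPKM in the mutants, and the part of either list in the values below was not tested. Transcript length, as implied by the deposited count value per FPKM, also set the libraries apart. In HDQ200/200 against HDQ+/+ the median log2 ratio of FPKM + 1 was −0.40 in the class of shortest implied length. It was 0.29 in the class of longest implied length (2573 genes each). The same 2 medians were 0.08 and −0.08 in HDQ150/150 and 0.25 and −0.14 in HDQ315/+. Values corrected for that trend by a lowess fit are given for the calls of the 9 genes and for the counts of the lists of related genes that differ.

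In HDQ+/+ the 9 genes spanned 1.19 to 52.2 FPKM. Grm5, the group I receptor gene, and Homer1 stood highest, at 52.2 FPKM (95% exact Poisson interval 51.2 to 53.3) and 51.8 FPKM (50.7 to 52.9), and their intervals overlapped. Below them followed Grm7 at 29.6, Grm3 at 24.3, Grm4 at 10.4 and Grm8 at 3.02 FPKM, each apart from its neighbours in the order by its counting interval. Grm2 at 1.78, Homer3 at 1.46 and Homer2 at 1.19 FPKM closed the order, Grm2 overlapping Homer3 and Homer3 overlapping Homer2. The order of Homer1, Grm7 and Grm3 depended on the length used. Per kilobase of the union of exons of protein-coding transcripts, likewise scaled to library size, Grm3 reached 28.8 fragments, Homer1 20.4 and Grm7 13.9. This placed Grm3 next to Grm5 at the top and Grm7 below Homer1 and Grm4. Across the 4 libraries, the highest FPKM of a gene was between 1.27 times (Grm8) and 3.38 times (Grm2) its lowest.

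**Figure D1:**
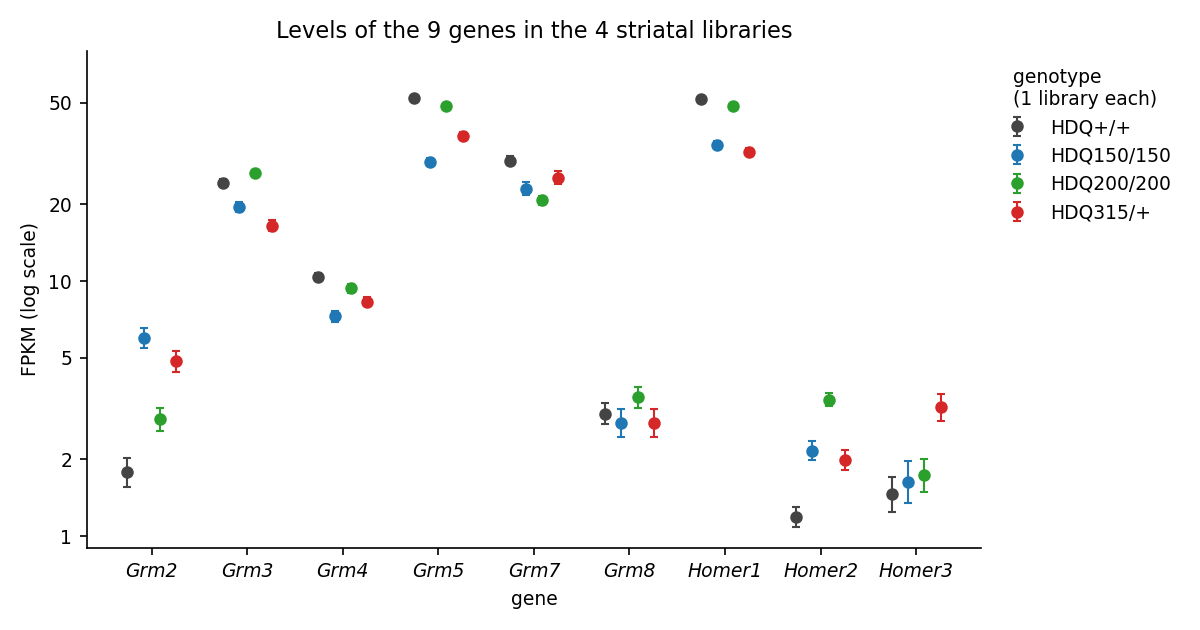
FPKM of the 9 genes on a log axis in the 4 libraries, 1 point per library with its 95% exact Poisson counting interval. Grm5 and Homer1 lie at 29.4 FPKM or higher in every library, Grm2 lies lowest in HDQ+/+ (1.78) and highest in HDQ150/150 (6.00), and Homer2 peaks in HDQ200/200 (3.43) and Homer3 in HDQ315/+ (3.20).

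Against HDQ+/+, Grm2 was higher and Grm5 lower in HDQ150/150, Homer2 was higher in HDQ200/200, and Grm2 and Homer3 were higher and Homer1 lower in HDQ315/+. No gene of the 9 was called in all 3 mutants. Differences between libraries were taken on the scale of log2(FPKM + 1), and a gene was called from 1.5-fold. Of the 9 genes, 1 was called higher and 1 lower in HDQ150/150 against HDQ+/+, where 6.34% of all tested genes were called in either direction. In HDQ200/200, 1 was higher and 0 lower, and 14.2% of tested genes were called. In HDQ315/+, 2 were higher and 1 lower, and 5.04% of tested genes were called. After length correction the calls among the 9 were 2 higher and 1 lower in HDQ150/150 (6.36% of tested genes called), 0 in HDQ200/200 (6.86%), and 3 higher and 1 lower in HDQ315/+ (4.03%). With 9 genes, these counts are set beside the background as a description. Median log2 ratios of the 9 genes were −0.30, 0.11 and −0.21 in HDQ150/150, HDQ200/200 and HDQ315/+, against −0.0045, −0.05 and 0.04 over all tested genes. All 3 comparisons share the HDQ+/+ library. Median centring turned the split of all called genes from 692 higher and 1132 lower to 903 and 904 in HDQ200/200, and from 375 and 274 to 294 and 355 in HDQ315/+.

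The group I receptor gene Grm5 lies on the plus strand of mouse chromosome 7, from 87584168 to 88134907 in the GENCODE M21 annotation of GRCm38, the assembly also called mm10. Its level was 52.2 FPKM (HDQ+/+), 29.4 (HDQ150/150), 48.7 (HDQ200/200) and 37.2 (HDQ315/+), from 10252, 3411, 9914 and 4288 fragments. HDQ+/+ and HDQ200/200 thus formed the high pair and HDQ150/150 the lowest library. Grm5 was called lower in HDQ150/150, at a log2 ratio of −0.81, at percentile 1.41 of all tested genes. The ratio was −0.48 in HDQ315/+ and −0.10 in HDQ200/200, both under the fold size. Scaled counts, the deposited count values, gave ratios to HDQ+/+ of 0.541 (95% exact Clopper-Pearson interval 0.521 to 0.563) in HDQ150/150, 1.11 (1.08 to 1.14) in HDQ200/200 and 0.605 (0.584 to 0.627) in HDQ315/+. On that scale HDQ315/+ passed the fold size as well (−0.72), and HDQ200/200 turned from slightly below to slightly above wild type (0.15). After length correction the 3 log2 ratios were −0.76, −0.26 and −0.40, all below 0.

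Grm2 is the group II receptor gene known for presynaptic restraint of glutamate release, on the minus strand of chromosome 9 (106643095 to 106656082). It stood at 1.78 FPKM (HDQ+/+), 6.00 (HDQ150/150), 2.87 (HDQ200/200) and 4.86 (HDQ315/+), from 224, 503, 344 and 450 fragments. Each mutant library lay above wild type with no overlap of counting intervals. HDQ150/150 (log2 ratio 1.33, percentile 99.7 of tested genes) and HDQ315/+ (1.08, percentile 99.5) were called higher, and HDQ200/200 (0.48) was not. Scaled counts put the ratios to HDQ+/+ at 3.65 (3.12 to 4.30), 1.76 (1.48 to 2.09) and 2.91 (2.47 to 3.43) for HDQ150/150, HDQ200/200 and HDQ315/+, so that HDQ200/200 passed the fold size on that scale (0.81). Length correction left the calls as they were, at 1.36, 0.45 and 1.09.

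Markers of glutamatergic neurons of the cortex and thalamus, which send axons into the striatum, were also higher in some of these libraries. Of 10 cortical markers, all measured and none at 0, 9 were called higher in HDQ150/150, 7 in HDQ200/200 and 3 in HDQ315/+, where 2 were lower (9, 8 and 3 higher after length correction). Their summed level was 180 FPKM (HDQ+/+), 448 (HDQ150/150), 252 (HDQ200/200) and 232 (HDQ315/+). Of 8 thalamic markers, again none at 0, 7 were called higher in HDQ315/+ (8 after length correction), with a sum of 129 FPKM against 25.6 in HDQ+/+, 26.1 in HDQ150/150 and 31.8 in HDQ200/200. The part of either list in the values of Grm2 was not tested.

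Grm3, the other group II receptor gene, lies on chromosome 5 (9485541 to 9725170, minus strand). It measured 24.3 FPKM (HDQ+/+), 19.5 (HDQ150/150), 26.4 (HDQ200/200) and 16.5 (HDQ315/+). None of the 3 mutants passed the fold size against wild type (log2 ratios −0.30, 0.11 and −0.53), with HDQ315/+ passing on scaled counts (−0.62, ratio 0.651, 0.612 to 0.693) and with the upper quartile made equal (−0.60). The FPKM of Grm3 was 13.7 times that of Grm2 in HDQ+/+, 9.21 times in HDQ200/200, but 3.26 times in HDQ150/150 and 3.39 times in HDQ315/+. The 9 astrocyte markers, none at 0, summed to between 872 and 922 FPKM in the 4 libraries. Of them 0 were called in HDQ150/150, 2 were higher in HDQ200/200 (Slc1a2 at 0.60 and Aqp4 at 0.65), and 1 was higher (Gjb6, 0.61) and 1 lower (Slc1a2, −0.72) in HDQ315/+, and none was called after length correction. These markers were named after their values were seen, and their part in the values of Grm3 was not tested.

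None of the group III receptor genes, which act largely at nerve terminals, was called in any mutant against HDQ+/+. Grm4, on chromosome 17 (27422387 to 27521403, minus strand), measured 10.4 FPKM (HDQ+/+), 7.27 (HDQ150/150), 9.37 (HDQ200/200) and 8.30 (HDQ315/+). Its log2 ratios were −0.46, −0.13 and −0.29 (−0.37, −0.52 and −0.12 after length correction), and on scaled counts −0.49, −0.39 and −0.03, so the lowest library was HDQ150/150 in FPKM and in scaled counts but HDQ200/200 after length correction. Grm8, on chromosome 6 (27275119 to 28135178, minus strand), was the gene of the 9 that varied least, at 3.02, 2.77, 3.52 and 2.78 FPKM in HDQ+/+, HDQ150/150, HDQ200/200 and HDQ315/+. Its scaled-count intervals against wild type included 1 in HDQ150/150 (0.791 to 1.09) and HDQ315/+ (0.751 to 1.03). In those libraries a difference was not detectable at this depth (246 and 262 fragments). In HDQ200/200 the ratio was 1.16, with an interval just above 1 (1.01 to 1.33).

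Grm7, on the plus strand of chromosome 6 (110645581 to 111567230), gave different answers in FPKM and in counts. In FPKM it stood at 29.6 (HDQ+/+), 23.0 (HDQ150/150), 20.7 (HDQ200/200) and 25.4 (HDQ315/+), which made HDQ200/200 the lowest library (log2 ratio −0.50). On scaled counts HDQ200/200 was above wild type, at 1.08 times its value (1.02 to 1.14), while HDQ150/150 stood at 0.748 (0.695 to 0.803) and HDQ315/+ at 0.676 (0.629 to 0.726). The transcript length implied by a library, the scaled count per FPKM, was 1.54 times the wild-type value in HDQ200/200 and 0.788 times in HDQ315/+ for this gene. GENCODE M21 lists 4 protein-coding Grm7 transcripts of 386 to 4197 bases, and the gene-level row does not say how fragments were shared among isoforms. No direction is therefore given for Grm7 in HDQ200/200.

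**Figure D2:**
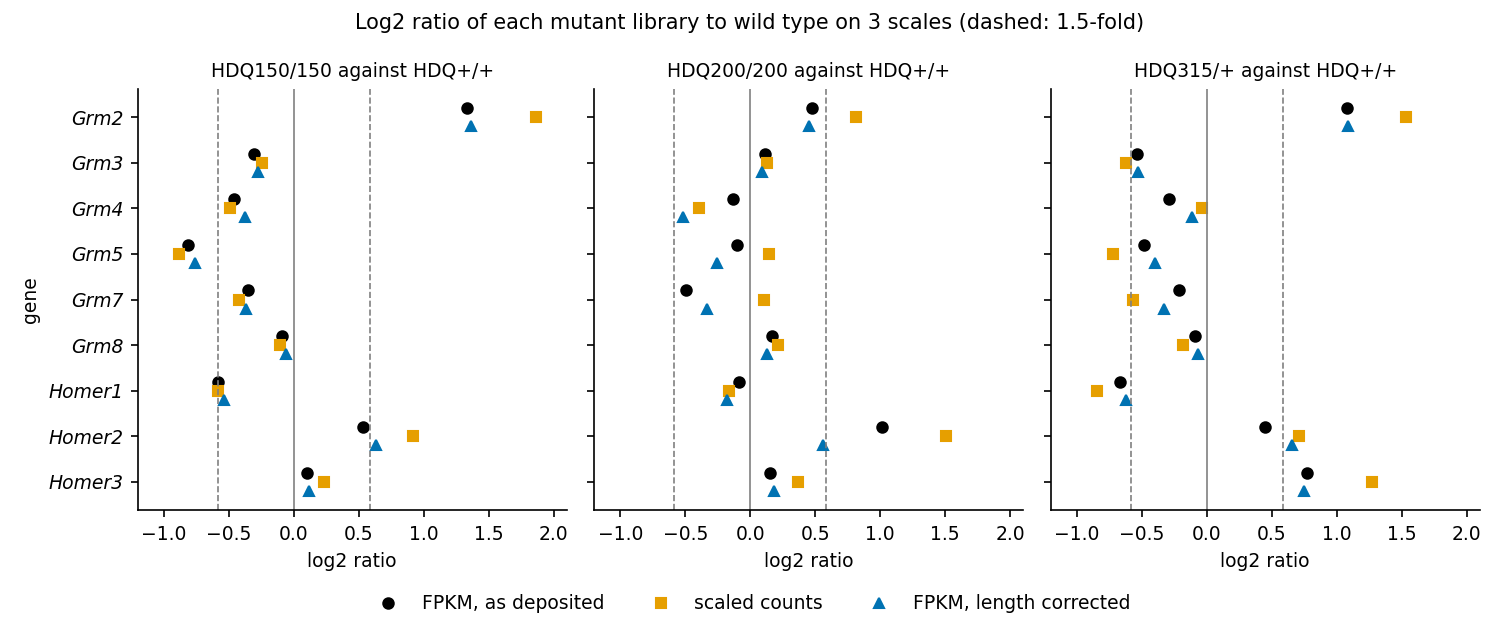
Log2 ratio of each mutant library to HDQ+/+ for the 9 genes on 3 scales: log2(FPKM + 1) as deposited (circles), log2(scaled count + 1) (squares) and FPKM after length correction (triangles), with dashed lines at 1.5-fold. Grm2 lies right of the line in HDQ150/150 (1.33) and HDQ315/+ (1.08) on all 3 scales, and Grm7 in HDQ200/200 lies on opposite sides of 0 in FPKM (−0.50) and scaled counts (0.11).

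Within the summed FPKM of the 6 receptor genes, which was 121 (HDQ+/+), 87.9 (HDQ150/150), 112 (HDQ200/200) and 95.0 (HDQ315/+), shares do not depend on the scaling between libraries. Grm5 held 43.0% (HDQ+/+), 33.4% (HDQ150/150), 43.6% (HDQ200/200) and 39.1% (HDQ315/+). Grm2 held 1.46%, 6.83%, 2.57% and 5.12% in the same order of libraries. The share of Grm7 was lowest in HDQ200/200 (18.6% against 24.4% in HDQ+/+), but with 1 length per gene in place of the length implied in each library it was 24.6% in both. Per kilobase of exon union the Grm5 share was lower in each library, at 35.3%, 25.8%, 37.1% and 29.3%, and Grm3 rather than Grm5 held the most in HDQ150/150 (33.9%).

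**Figure D3:**
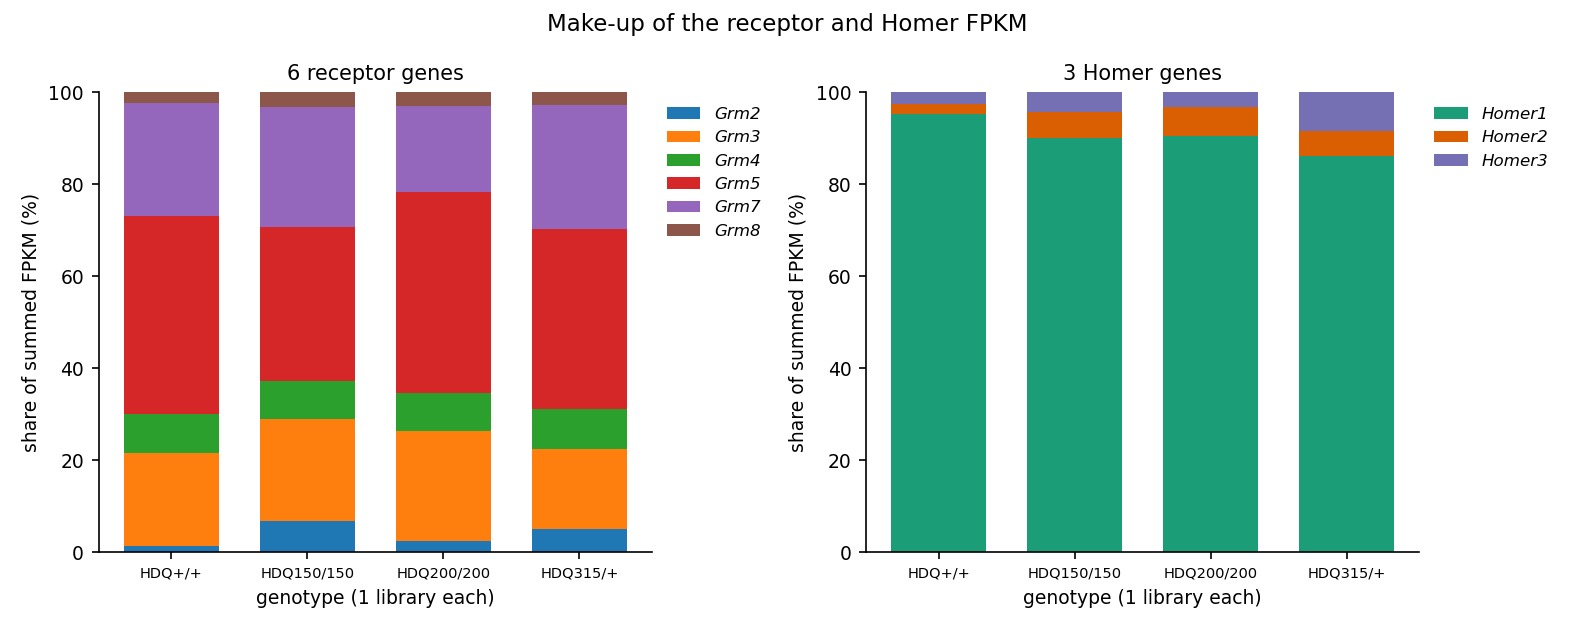
Share of each gene, in percent, in the summed FPKM of the 6 receptor genes (left) and of the 3 Homer genes (right), 1 stacked bar per library. The Grm5 band is narrowest in HDQ150/150 (33.4%), the Grm2 band grows from 1.46% in HDQ+/+ to 6.83% there, and Homer1 makes up between 86.1% (HDQ315/+) and 95.1% (HDQ+/+) of the Homer FPKM.

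Homer1, the most abundant scaffold gene of the 3, is annotated on the plus strand of chromosome 13 from 93299635 to 93405129, with 11 protein-coding transcripts of 772 to 5713 bases. The single gene-level row adds its short and long forms together, so none of the values below is specific to either. Homer1 measured 51.8 FPKM (HDQ+/+), 34.2 (HDQ150/150), 48.7 (HDQ200/200) and 32.2 (HDQ315/+), from 8666, 3551, 6767 and 3342 fragments. HDQ+/+ and HDQ200/200 were again the high pair. It was called lower in HDQ315/+ (log2 ratio −0.67, percentile 1.45 of tested genes) and stood just inside the fold size in HDQ150/150 (−0.58, FPKM ratio 0.661), where an equal upper quartile (−0.59) or a pseudocount of 0.1 (−0.60) took it past. In HDQ200/200 the log2 ratio was −0.09. Scaled counts gave ratios of 0.667 (0.641 to 0.693), 0.895 (0.867 to 0.924) and 0.558 (0.536 to 0.581) for HDQ150/150, HDQ200/200 and HDQ315/+. The FPKM of Homer1 stayed near that of Grm5, with ratios of 0.991 (HDQ+/+), 1.17 (HDQ150/150), 1.0 (HDQ200/200) and 0.866 (HDQ315/+). That nearness depended on the length used. Per kilobase of exon union, Homer1 lay below Grm5 in every library, at 20.4 against 34.1 fragments in HDQ+/+ and 17.6 against 36.4 in HDQ200/200. A pair of unnamed features share the deposited span of Homer1 and held at most 11 fragments each in any library.

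Homer2, a scaffold gene of the same family at low level in these libraries, is annotated on chromosome 7 (81600481 to 81707527, minus strand). It stood at 1.19 FPKM (HDQ+/+), 2.17 (HDQ150/150), 3.43 (HDQ200/200) and 1.99 (HDQ315/+), from 453, 526, 1124 and 514 fragments. All 3 mutant libraries lay above wild type without overlap of counting intervals, HDQ200/200 furthest. HDQ200/200 was the library called higher (log2 ratio 1.02, percentile 99.4), HDQ150/150 (0.53) and HDQ315/+ (0.45) being under the fold size. Scaled counts placed all 3 past it, at 1.89 (1.66 to 2.15), 2.84 (2.55 to 3.18) and 1.64 (1.44 to 1.87) times wild type. Homer2 has one of the longest implied transcripts, at percentile 97.9 of tested genes, and length correction moved its log2 ratios to 0.63 in HDQ150/150, 0.56 in HDQ200/200 and 0.65 in HDQ315/+. The HDQ200/200 call thus ended and those of the other mutants began, and the corrected values of the 3 mutants lay close together.

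Homer3, on the plus strand of chromosome 8 (70282827 to 70294361), measured 1.46 FPKM (HDQ+/+), 1.64 (HDQ150/150), 1.73 (HDQ200/200) and 3.20 (HDQ315/+), from 159, 115, 179 and 267 fragments. The first 3 libraries overlapped in their counting intervals and HDQ315/+ stood apart above them. HDQ315/+ was called higher, by a log2 ratio of 0.77 (percentile 98.8) and 2.43 times on scaled counts (1.99 to 2.98), and the call was kept after length correction (0.75). Its deposited span is shared with Ddx49, a helicase gene, which measured 11.3 FPKM in HDQ+/+ and 13.9 FPKM in HDQ315/+, and the labels used here do not say whether counting used strand, without which reads of overlapping genes cannot be told apart. HDQ315/+ is also the library in which the thalamic markers were higher, and their part in the Homer3 value was not tested. Among the Homer genes, Homer1 held 95.1% (HDQ+/+), 90.0% (HDQ150/150), 90.4% (HDQ200/200) and 86.1% (HDQ315/+). Per kilobase of exon union its share was 88.7% in HDQ+/+ and 67.5% to 78.3% in the mutants. The FPKM ratio of Homer1 to Homer2 was 43.5 in HDQ+/+ and between 14.2 and 16.2 in the mutants. Per kilobase of exon union, Homer1 and Homer2 stood at 20.4 and 1.10 fragments in HDQ+/+, a smaller ratio.

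The promoter windows of Homer1, Homer2 and Grm2 are printed because, once their values were seen, these genes stood in contrast. Homer2 and Grm2 lay above wild type in each mutant, and Homer1 lay below it. In HDQ200/200, however, Homer1 was close to wild type (log2 ratio −0.09, percentile 46.8 of tested genes, −0.03 with median centring). The windows are from RefSeq on GRCm38.p6, from 250 bases before to 50 after an annotated start, written 5′ to 3′ on the gene's strand. The Homer1 window is chr13:93303507-93303806 (plus strand) and lies before the deposited span of the gene, which starts at 93304495. The Homer2 window is chr7:81706876-81707175 and the Grm2 window chr9:106656060-106656359, both on the minus strand. Capitals mark TGACGT or its reverse complement ACGTCA, which hold the core that CREB and ATF factors are known to recognise. This motif was chosen after the windows had been read.
Homer1: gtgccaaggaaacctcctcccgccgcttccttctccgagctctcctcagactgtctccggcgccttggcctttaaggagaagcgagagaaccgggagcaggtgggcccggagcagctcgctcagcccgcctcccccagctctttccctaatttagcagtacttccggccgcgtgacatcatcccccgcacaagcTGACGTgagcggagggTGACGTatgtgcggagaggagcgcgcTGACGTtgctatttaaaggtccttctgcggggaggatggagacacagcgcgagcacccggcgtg
Homer2: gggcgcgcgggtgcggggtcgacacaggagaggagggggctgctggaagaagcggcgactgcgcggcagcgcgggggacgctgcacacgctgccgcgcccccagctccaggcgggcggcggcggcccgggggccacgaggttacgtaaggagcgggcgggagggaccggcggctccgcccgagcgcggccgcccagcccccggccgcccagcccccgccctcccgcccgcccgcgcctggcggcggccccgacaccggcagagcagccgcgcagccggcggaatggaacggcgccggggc
Grm2: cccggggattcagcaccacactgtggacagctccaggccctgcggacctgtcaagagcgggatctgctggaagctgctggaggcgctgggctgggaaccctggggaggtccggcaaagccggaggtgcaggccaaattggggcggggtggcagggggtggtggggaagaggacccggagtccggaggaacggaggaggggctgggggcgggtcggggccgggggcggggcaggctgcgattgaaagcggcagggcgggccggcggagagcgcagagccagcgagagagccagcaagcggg
The Homer1 window holds 3 matches, and none was found in the other printed windows or in the remaining windows of the genes (12 windows for 7 of the 9 genes, Grm4 and Grm5 having none in the table). Over 32851 RefSeq windows of the same length, 7.51% hold at least 1 match and 0.201% hold 3 or more. The GC content was 63.0% in the Homer1 window, and it was higher in both others, with 82.3% at Homer2, against a median of 52.7% over all windows. A match is a description of the letters and not evidence of binding.

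Set against each other, the mutant libraries differed past the fold size in some of the 9 genes, given here pair by pair. HDQ200/200 was called lower than HDQ150/150 in Grm2 (log2 ratio −0.86) and higher in Grm5 (0.71), where 18.4% of tested genes were called. The Grm5 difference was 2.05 times on scaled counts (1.97 to 2.13) and fell under the fold size after length correction (0.51), whereas Grm2 kept its call (−0.89, with 6.20% of tested genes called). HDQ315/+ was called higher than HDQ150/150 in Homer3 alone (0.67, and 0.63 after length correction), where 4.51% of tested genes were called (4.03% after correction). Between HDQ315/+ and HDQ200/200, Grm2 (0.60) and Homer3 (0.62) were higher and Grm3 (−0.65) lower, where 29.2% of tested genes were called. The median of all tested genes was itself 0.11 in that pair, and relative to it the values were 0.49 for Grm2, 0.51 for Homer3 and −0.76 for Grm3, so that the call of Grm3 alone was kept. Homer1 joined the lower calls on that relative scale (−0.70), as did Homer2 (−0.68), but after length correction they stood at −0.46 and 0.07, Homer3 at 0.55, Grm2 at 0.61 and Grm3 at −0.64, with 11.6% of tested genes called.

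**Figure D4:**
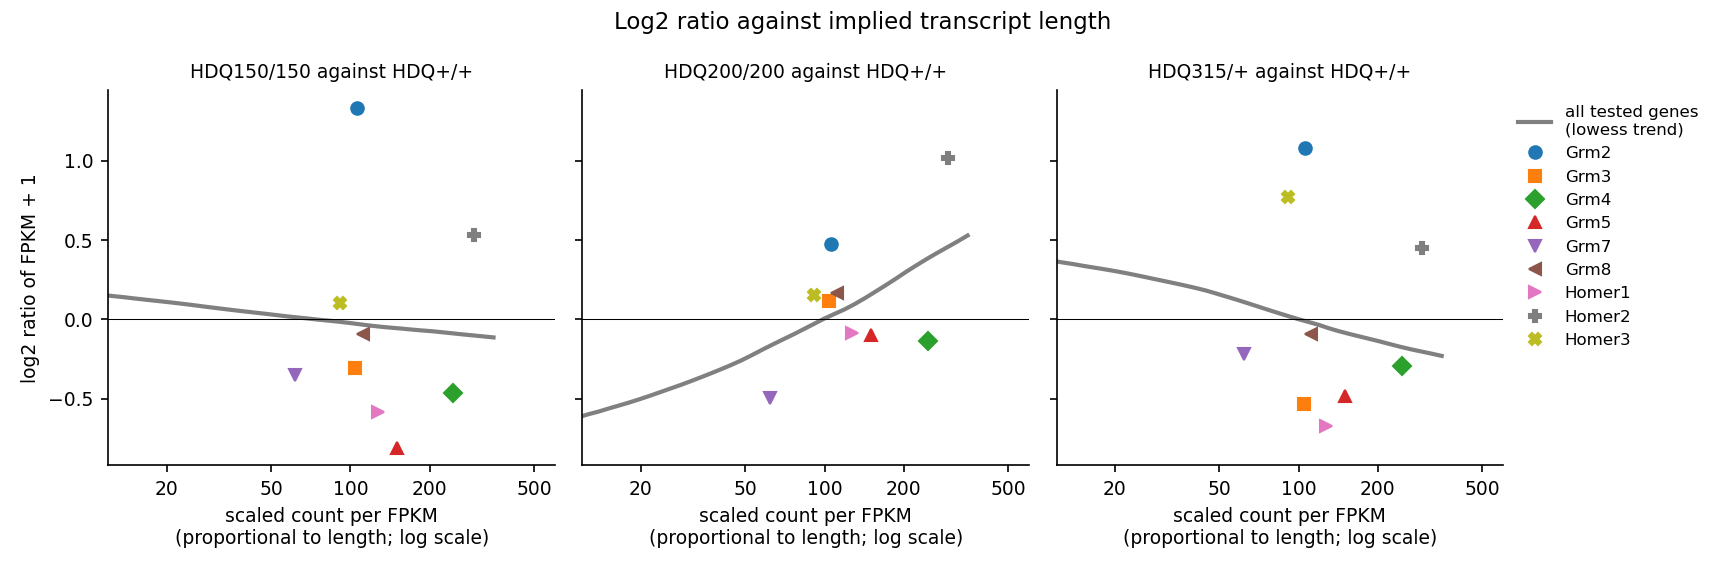
Log2 ratio of FPKM + 1 to HDQ+/+ (vertical) against the scaled count per FPKM (horizontal, log axis). The 9 genes are symbols and the lowess trend of all tested genes is the grey line. The scaled count per FPKM is the transcript length implied by the deposited values, as the median of the 4 libraries. It can differ between libraries for the same gene. The trend rises with length in HDQ200/200 and falls in the other mutants, and Homer2, the gene of the 9 furthest to the right, lies at 1.02 in HDQ200/200 where the trend reaches 0.46.

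Downstream of the receptors, genes were followed in 5 lists, 51 genes in all, each of them measured. Their counts stand beside the 6.34%, 14.2% and 5.04% of all tested genes called in HDQ150/150, HDQ200/200 and HDQ315/+. Counts after length correction stand beside 6.36%, 6.86% and 4.03% in the same order of libraries. In the Gq list, which holds the effectors of group I receptors, HDQ150/150 had 0 higher and 3 lower genes of 11, HDQ200/200 had 0 and 1, and HDQ315/+ had 2 and 2, with medians of −0.04, 0.03 and −0.01. After length correction 1 rather than 3 was lower in HDQ150/150. Plcb1, the phospholipase C gene, went from 56.3 FPKM in HDQ+/+ to 32.4 in HDQ150/150 (−0.78, the lowest of the list there) and 30.2 in HDQ315/+ (−0.88, the lowest there), with 50.6 in HDQ200/200 (−0.15). Itpr1, the inositol trisphosphate receptor gene, was the lowest in HDQ200/200 (216 to 122 FPKM, −0.82), but on scaled counts it stood above wild type there (0.20). Plcb4, another phospholipase C gene, was the highest of the list in HDQ150/150 (0.43, under the fold size) and in HDQ315/+ (7.73 to 15.6 FPKM, 0.93), and the G protein subunit gene Gnaq in HDQ200/200 (0.53, under the fold size).

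In the Gi/o list, which holds the effectors of group II and III receptors, HDQ150/150 had 4 higher and 1 lower gene of 11, HDQ200/200 had 3 and 1, and HDQ315/+ had 0 and 1, with medians of 0.25, 0.32 and −0.02. Adcy5, the main adenylyl cyclase gene of the striatum, was the lower gene each time, with 184 FPKM in HDQ+/+ against 83.3 (HDQ150/150, −1.14), 118 (HDQ200/200, −0.64) and 98.3 (HDQ315/+, −0.90). The inward rectifier potassium channel gene Kcnj3 was the highest in HDQ150/150 (6.85 to 13.6 FPKM, 0.90) and in HDQ315/+ (9.89 FPKM, 0.47, under the fold size, and 0.60 after length correction, which made it the 1 higher gene of the list there). The adenylyl cyclase gene Adcy1 was the highest in HDQ200/200 (15.7 to 36.7 FPKM, 1.17). It was not the highest there after length correction (0.64) or on scaled counts (1.37).

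Among postsynaptic partners of Homer, HDQ150/150 had 2 higher and 0 lower genes of 12, HDQ200/200 had 3 and 2, and HDQ315/+ had 0 and 1, with medians of −0.10, 0.10 and −0.27. Shank1, a scaffold gene whose product Homer binds, was the highest of the list in each mutant, with 8.03 FPKM in HDQ+/+ against 17.4 (HDQ150/150, 1.03), 22.0 (HDQ200/200, 1.35) and 10.6 (HDQ315/+, 0.36, under the fold size). Shank3, its relative, stood at −0.41, −0.41 and −0.20, but in HDQ200/200 at −0.71, past the fold size, after length correction and at −0.02 on scaled counts. The lowest were Shank3 in HDQ150/150, the scaffold gene Dlgap3 in HDQ200/200 (114 to 69.1 FPKM, −0.71) and the activity-induced gene Arc in HDQ315/+ (67.6 to 35.2 FPKM, −0.92). After length correction 3 were higher in HDQ150/150, and 1 was higher and 4 were lower in HDQ200/200, with a median there of −0.18 in place of 0.10.

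Of 10 binding partners and regulators of the receptors, HDQ150/150 had 1 higher and 1 lower gene, HDQ200/200 had 1 and 3, and HDQ315/+ had 0 and 1, with medians of −0.12, −0.25 and 0.08. After length correction 0 were higher and 4 lower in HDQ200/200. Rgs4, which encodes a GTPase-activating protein for Gq and Gi/o subunits, was lower in each mutant and the lowest of the list in each, with 296 FPKM in HDQ+/+ against 155 in both HDQ150/150 and HDQ200/200 (−0.93 each) and 162 in HDQ315/+ (−0.86). Adrbk1, a receptor kinase gene, was the highest in HDQ150/150 (0.74) and HDQ315/+ (0.33, under the fold size), and Elfn2, a transmembrane protein gene, in HDQ200/200 (0.60, but 0.09 after length correction). Adcy5 and Rgs4 were the genes of the 5 lists called in the same direction in all 3 mutants, both lower. Counted in each mutant separately, 11, 9 and 5 of 12 projection neuron markers were lower in HDQ150/150, HDQ200/200 and HDQ315/+ (12, 9 and 7 after length correction). The part of that marker list in the values of Adcy5, Rgs4, Grm5 and Homer1 was not tested.

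For glutamate transport and turnover, 0 of 7 genes were called in HDQ150/150, 2 were higher in HDQ200/200 and 1 was lower in HDQ315/+, with medians of −0.21, 0.14 and −0.20, and after length correction none was called in these mutants. Slc1a2, the main astrocytic glutamate transporter gene, had 191 FPKM in HDQ+/+ and 160 in HDQ150/150, against 290 in HDQ200/200 (0.60) and 116 in HDQ315/+ (−0.72, the lowest of the list). Slc7a11, the cystine and glutamate exchanger gene, was the highest in HDQ200/200 (0.62) and the transporter gene Slc1a1 in HDQ315/+ (0.24, under the fold size). The vesicular transporter gene Slc17a8 was the lowest in HDQ150/150 (−0.46) and HDQ200/200 (−0.35), in both under the fold size.

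**Figure D5:**
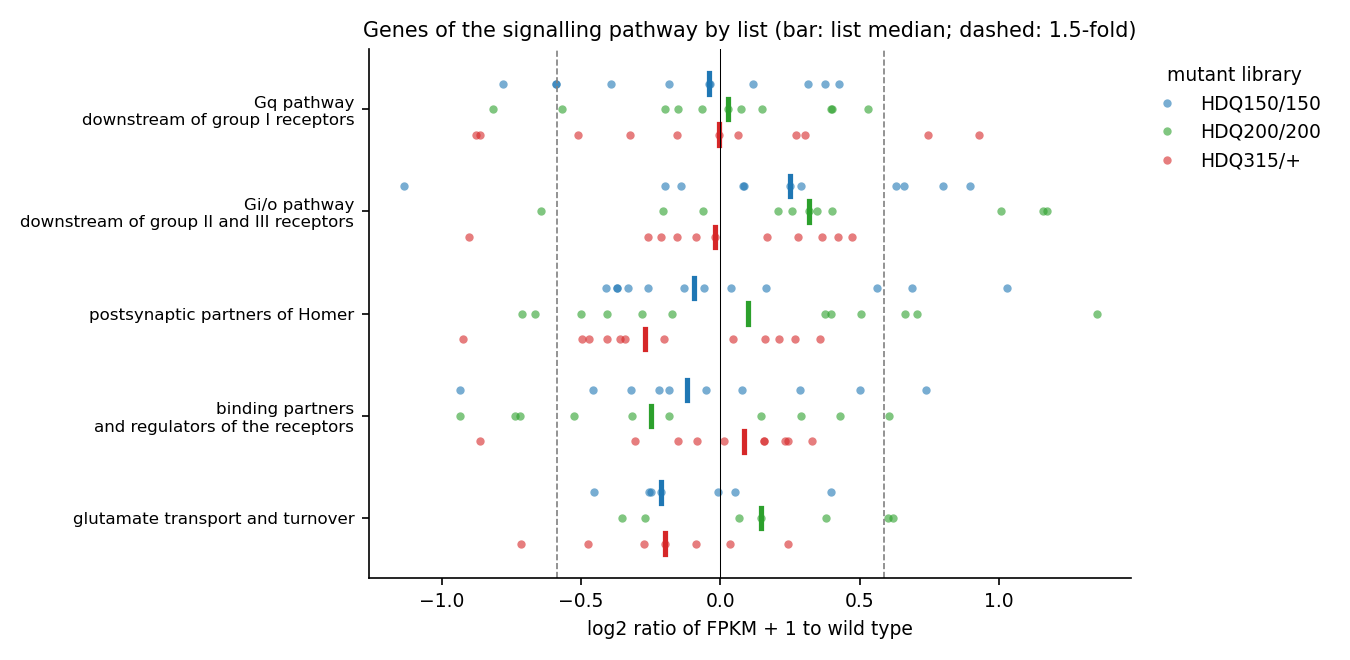
Log2 ratio of FPKM + 1 to HDQ+/+ for the genes of the 5 signalling lists, 1 point per gene and mutant library, with short bars at list medians and dashed lines at 1.5-fold. Most points lie between the lines, the rightmost is Shank1 in HDQ200/200 (1.35) and the leftmost Adcy5 in HDQ150/150 (−1.14).

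For each gene called in at least 1 of the 6 comparisons, the tested genes with the most similar profile were taken as those at the smallest Euclidean distance over the 4 libraries, on log2(FPKM + 1) centred on the gene's mean. Grm2 lay closest to Faah (0.15), Galnt9 (0.15) and Fkbp1b (0.16), and 8 genes lay within a distance of 0.25. Grm5 lay closest to Cacng4 (0.05), Osbpl8 (0.05) and Spata13 (0.08), with 94 genes within 0.25. For Homer1 the nearest were Ppp1r16b (0.05), Kdr (0.05) and Slc30a1 (0.06), with 207 genes. The profile of Homer2 was nearest to 2210408I21Rik (0.05), Arid5b (0.09) and Cdk14 (0.12), with 25 genes, and that of Homer3 to Gm20754 (0.04), Prim2 (0.06) and Cacng5 (0.09), with 53. Of the called genes, Grm3 had the most neighbours, with 682 genes within 0.25, Gab1 (0.01), Nxpe4 (0.02) and Abi2 (0.03) being nearest. Profiles were not scaled for the size of their changes, so a gene that varies little can have more neighbours. With 4 libraries and 12864 other genes, close profiles are described and not tested.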

How the data were processed

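Poly A+ RNA from mouse striatum was sequenced in paired-end TruSeq libraries, 1 per genotype, and each value column was assigned to its library by name. Per the submitters' processing notes, Cufflinks 2.1.1, with Cuffnorm and Cuffdiff, TopHat2 2.0.11 (also listed as TopHat), Bowtie2 2.1.0 and bcl2fastq 1.8.4 were used on build mm10, in roles and an order that are not recorded. Not given in the sources used here were the annotation, the strandedness and how libraries were scaled. The FPKM values are the authors' own, named so in the file headers. Their deposited count columns hold a scaled signal and not raw counts: in each library 97.4% to 98.2% of the values above 0 were whole multiples of 1 step (tolerance 0.05 steps), and dividing by the step gave the fragments behind each value. Their number sets the precision: intervals are exact Poisson (levels) or exact Clopper-Pearson (ratios of scaled counts) at 95%, for counting error only. PCR duplicates are not marked, so fragments need not be independent molecules.

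Features without a name (5934), short non-coding RNAs (695) and genes with a mean under 1 FPKM were not tested. Differences are of log2(FPKM + 1), which understates changes of genes with low values, and were called from 1.5-fold. No p-value was computed. Length correction subtracted a lowess trend (fraction 0.3) on the scaled count per FPKM. Alternatives were a pseudocount of 0.1, other filters, median centring, an equal upper quartile, scaled counts and a fold size of 2. Python 3.11.15, pandas 2.3.3, scipy 1.17.1 and statsmodels 0.14.6 were used. The members, lists and rules were chosen with earlier results of these data known. The text names the 9 genes, the list genes called alike in all 3 mutants, the highest and lowest of each list in each mutant, and the 3 nearest profiles of each called member. Of 8 marker lists, those for interneurons, oligodendrocytes and microglia had medians between −0.26 and 0.28 and at most 3 calls in either direction in each mutant against HDQ+/+. A list of further receptor genes and a gene of the transport list are not reported here.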

Additional observations from a re-analysis of the deposited data

How the results depend on the processing

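Of 54 log2 ratios (9 genes in 6 comparisons), none that passed the fold size in FPKM as deposited changed direction under any alternative. Over all 54, the direction was kept in 47 on scaled counts and in 46 after length correction. It was kept in 53 with median centring or an equal upper quartile, and in 54 with a pseudocount of 0.1. Grm7 in HDQ315/+ against HDQ200/200 stood at 0.28 in FPKM and −0.67 on scaled counts. The side of the fold size was kept in 47 with a pseudocount of 0.1, 50 with median centring, 48 with an equal upper quartile, 44 on scaled counts and 49 after length correction. The number of the 9 genes called was 2 in HDQ150/150 against HDQ+/+, and 4 with a pseudocount of 0.1. In HDQ200/200 it was 1, and 2 with a pseudocount of 0.1 or on scaled counts and 0 after length correction. In HDQ315/+ it was 3, and 6 on scaled counts. Between HDQ200/200 and HDQ150/150 it was 2, and 1 after length correction. Between HDQ315/+ and HDQ150/150 it was 1, and between HDQ315/+ and HDQ200/200 3, with 5 under a pseudocount of 0.1 and 7 on scaled counts. A fold size of 2 left 1 call in each of HDQ150/150, HDQ200/200 and HDQ315/+ against HDQ+/+, and 0 in the 3 pairs of mutants. A mean of at least 10 FPKM, which removes Grm2, Grm4, Grm8, Homer2 and Homer3, left 1, 0 and 1 calls against HDQ+/+ and 1, 0 and 1 in the pairs. The cause of these shifts was not tested, apart from the removal of genes by that filter.

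Over all tested genes, 816, 1824 and 649 were called in HDQ150/150, HDQ200/200 and HDQ315/+ against HDQ+/+. With a pseudocount of 0.1 the 3 counts were 1253, 2538 and 1054, and on scaled counts 1298, 2325 and 1316, of 12865 tested genes. With a fold size of 2 they were 192, 224 and 128. A mean of at least 10 FPKM gave 395, 1016 and 297, and the number of genes passing that filter is not given here. Length correction gave 882 in HDQ200/200, and 797 and 1492 in place of 2367 (HDQ200/200 against HDQ150/150) and 3757 (HDQ315/+ against HDQ200/200). In these pairs a fold size of 2 gave 250 and 841 and a mean of at least 10 FPKM 1473 and 2224. A pseudocount of 0.1 gave 4647 and scaled counts gave 4683 in HDQ315/+ against HDQ200/200. HDQ315/+ against HDQ150/150 had 580, or 900 with a pseudocount of 0.1, 915 on scaled counts, 160 with a fold size of 2 and 194 with a mean of at least 10 FPKM. Median centring gave 1281 higher and 1048 lower genes in place of 980 and 1387 in HDQ200/200 against HDQ150/150, 1666 and 1978 in place of 2346 and 1411 in HDQ315/+ against HDQ200/200, and 261 and 304 in place of 325 and 255 in HDQ315/+ against HDQ150/150.

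The exon-union length was added after seeing the data. No paired analysis was possible because each genotype has 1 library, which also left no library to omit. Depth limits Homer3 most, at 115 to 267 fragments per library.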
